A study of Mus musculus with 12 samples.

Results

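The Toll-like receptors of mouse peritoneal macrophages are described here across genotype and tumour challenge. The members were taken by symbol: Tlr1, Tlr2, Tlr4, Tlr5 and Tlr6, which act at the cell surface, and Tlr3, Tlr7, Tlr8, Tlr9 and Tlr13, which act in endosomes. Each matched 1 Ensembl identifier, which gave 10 of the 57010 genes in the deposited table. The 12 RNA-seq libraries came from large peritoneal macrophages (LPM), sorted as F4/80 high and MHCII low cells from the peritoneal cavity of female mice. They formed 4 groups of 3 libraries. WT naive and Tim4KO naive cells came from mice with no injection. WT ID8 and Tim4KO ID8 cells were collected 24 h after ID8ZGO, the ID8 mouse ovarian tumour line carrying ZsGreen and OVA, had been injected intraperitoneally at 8 weeks of age. Only ZsGreen+ cells were sorted from challenged mice, so the effect of challenge and the selection for uptake cannot be told apart. Tim4KO mice lack the scavenger receptor Tim4, and how the allele was made is not given in the sources used here. The labels do not say whether libraries of a group came from separate animals, so p-values measure the spread between these libraries, which may be technical.

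Toll-like receptors are membrane proteins that bind conserved microbial or nucleic acid structures and signal through adaptors such as Myd88 and Ticam1 to NF-kB and interferon regulatory factors. The surface members mostly bind lipids, lipopeptides or proteins of microbes. The endosomal members bind nucleic acids and depend on Unc93b1, a chaperone that carries them out of the endoplasmic reticulum, so in phagocytes they meet RNA and DNA of what the cell has engulfed.

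Library totals ran from 7358559 to 23170244 counts. Levels are given as CPM, counts relative to the library total with TMM factors, and a count of 3, taken as the floor, was worth 0.137 to 0.399 CPM. Timd4, the gene of Tim4, lay between 882 and 1481 CPM in the 6 WT libraries and between 1.38 and 7.68 CPM in the 6 Tim4KO libraries. The 8 LPM markers, Gata6 and Adgre1 among them, summed to 19010 to 23710 CPM in WT naive and 15570 to 18760 in WT ID8. In Tim4KO cells they summed to 20720 to 24320 CPM in naive and 19360 to 20100 in ID8 libraries. The sum was thus lower in ID8 libraries of both genotypes, but its members moved unequally. Alox15 was at 9797 to 13060 CPM in naive and 4746 to 8122 in ID8 libraries, Adgre1 at 2545 to 3769 and 3917 to 6289. None of the 8 was at or under the floor in any group. Olfactory and vomeronasal receptor genes, used as a measure of background reads, summed to 267 to 830.5 CPM in naive libraries and 6.84 to 361 CPM in ID8 libraries, with the lowest value in WT ID8 replicate 3.

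Tlr13, Tlr2, Tlr7 and Tlr4 were the most abundant receptors in all 4 groups, and none of them passed the test in any comparison. After challenge, Tlr1 rose by 0.74 on the log2 scale in WT and by 0.59 in Tim4KO cells, and Tlr3 rose by 0.82 in WT cells, which is 1.76-fold. In Tim4KO cells the Tlr3 difference was 0.19 and was not called, nor was the difference between genotypes in this response. Tlr8 fell by 0.97 in WT and by 0.87 in Tim4KO cells. Neither Tlr8 call held with background reads as a covariate, with changes of -0.94 and -0.86 (edgeR adjusted p = 0.103 and 0.0564). The Tim4KO calls of Tlr1 and Tlr8 each held in 6 of 12 fits that left out 1 library. Tlr5 had few reads and entered the test through its naive libraries alone, and neither of its calls stood without the filter on low counts. No receptor was called between Tim4KO and WT cells, where 0.0439% of all tested genes were called in naive and 0.0565% in ID8 cells. Tlr3 was called lower in Tim4KO ID8 than in WT ID8 cells when WT ID8 replicate 3 was left out (edgeR adjusted p = 0.0316). These are levels in bulk RNA, in which fewer cells carrying a transcript and less transcript per cell cannot be told apart.

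The test was edgeR's quasi-likelihood F test over 15943 genes, with calls made where the p adjusted by Benjamini-Hochberg was under 0.05. Of the 10 receptors, 9 passed the filter on low counts, which asked for about 0.755 CPM in at least 3 libraries. Tlr9 did not pass it, and Tlr5 passed through its naive libraries alone, with 6 of 6 naive and 0 of 6 ID8 libraries over that level. In WT cells 4 receptors were called after challenge, 2 higher and 2 lower, where 31.8% of all tested genes were called, 19.5% higher and 12.3% lower. In Tim4KO cells 3 were called, 1 higher and 2 lower, against 16.6% of all tested genes, 11.5% higher and 5.06% lower. One lower call in each genotype was Tlr5, which entered the test through its naive libraries alone. Over the other 8 receptors, 2 were called higher and 1 lower in WT cells, and 1 higher and 1 lower in Tim4KO cells. The median log2 change of the 9 receptors was 0.08 in WT cells, beside -0.04 for all tested genes, and -0.11 beside -0.05 in Tim4KO cells (0.09 and -0.07 without Tlr5). Upper-quartile scaling moved the median of all genes by -0.24 in the WT and -0.12 in the Tim4KO comparison, and it changed the share of calls that were higher from 61.3% to 33.9% in WT and from 69.5% to 48.7% in Tim4KO cells. Under that scaling Tlr1 and Tlr3 stayed called in WT cells, while Tlr1 in Tim4KO cells had an edgeR adjusted p of 0.0795.

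**Figure D1:**
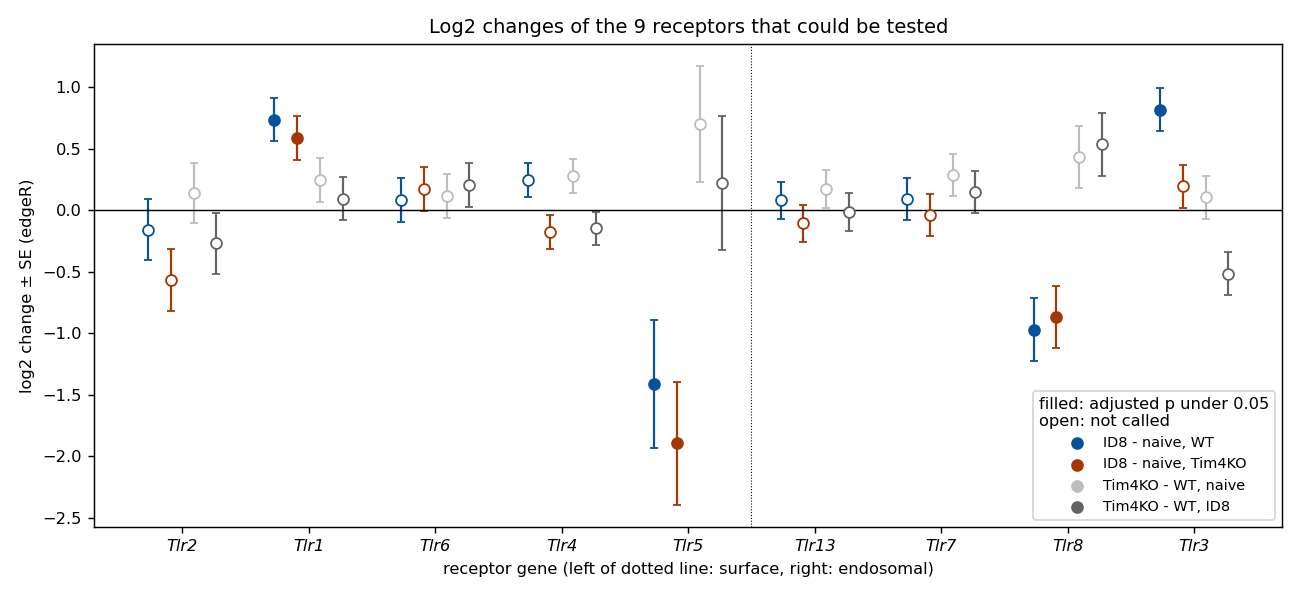
Log2 change and SE from edgeR on the y axis for the 9 tested receptors on the x axis, in 4 comparisons told apart by colour; filled points had an adjusted p under 0.05 and open points did not. Filled points are seen for Tlr1, Tlr5, Tlr8 and Tlr3 after challenge and for no receptor between genotypes. Those of Tlr5 come from a gene that entered the test through its naive libraries alone.

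To compare receptors with each other, CPM was divided by the exonic length of each gene in kb, from GENCODE vM21. On this scale Tlr13, the receptor for bacterial ribosomal RNA, was first in every group, at 54.9 ± 7.12 in naive WT, 62.0 ± 3.16 in naive Tim4KO, 58.4 ± 12.3 in challenged WT and 57.7 ± 6.01 CPM per kb in challenged Tim4KO (mean ± SD, n = 3). Its libraries did not overlap with those of the next receptor in any group. It supplied 36.9% to 43.5% of the summed CPM per kb of the 10 receptors, over all 12 libraries.

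Tlr2, Tlr7 and Tlr4 followed, between 16.1 and 30.2 CPM per kb as group means. Tlr2 and Tlr7 overlapped in naive WT, WT ID8 and Tim4KO ID8 but not in naive Tim4KO, where Tlr2 was higher. Tlr7 and Tlr4 overlapped in every group but Tim4KO ID8, where Tlr2 stood between them and overlapped with Tlr7 only. The fifth place changed with challenge: Tlr8 held it in both naive groups, at 9.83 ± 1.73 and 13.3 ± 1.61 CPM per kb, clear of Tlr6 below it. In WT ID8 cells the libraries of Tlr6, Tlr1, Tlr8 and Tlr3 overlapped from each to the next, with means of 5.52, 5.43, 5.03 and 4.87 CPM per kb. In Tim4KO ID8 cells Tlr8, Tlr6 and Tlr1 overlapped in the same way, at 7.32, 6.37 and 5.78 CPM per kb, and Tlr3 lay below them at 3.40. Tlr5 and Tlr9 came last in all groups, at 0.376 CPM per kb or less.

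The endosomal receptors together made up 62.3 ± 1.48% of the summed CPM per kb in naive WT, 63.1 ± 1.10% in naive Tim4KO, 62.0 ± 3.28% in challenged WT and 64.5 ± 0.907% in challenged Tim4KO cells (mean ± SD, n = 3). These 4 ranges overlapped, from 60.1% to 65.8% over all libraries. Within these shares, Tlr8 held 6.68% to 8.64% in naive and 2.44% to 5.76% in ID8 libraries, and Tlr1 held 1.84% to 2.99% in naive and 3.66% to 4.32% in ID8 libraries.

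**Figure D2:**
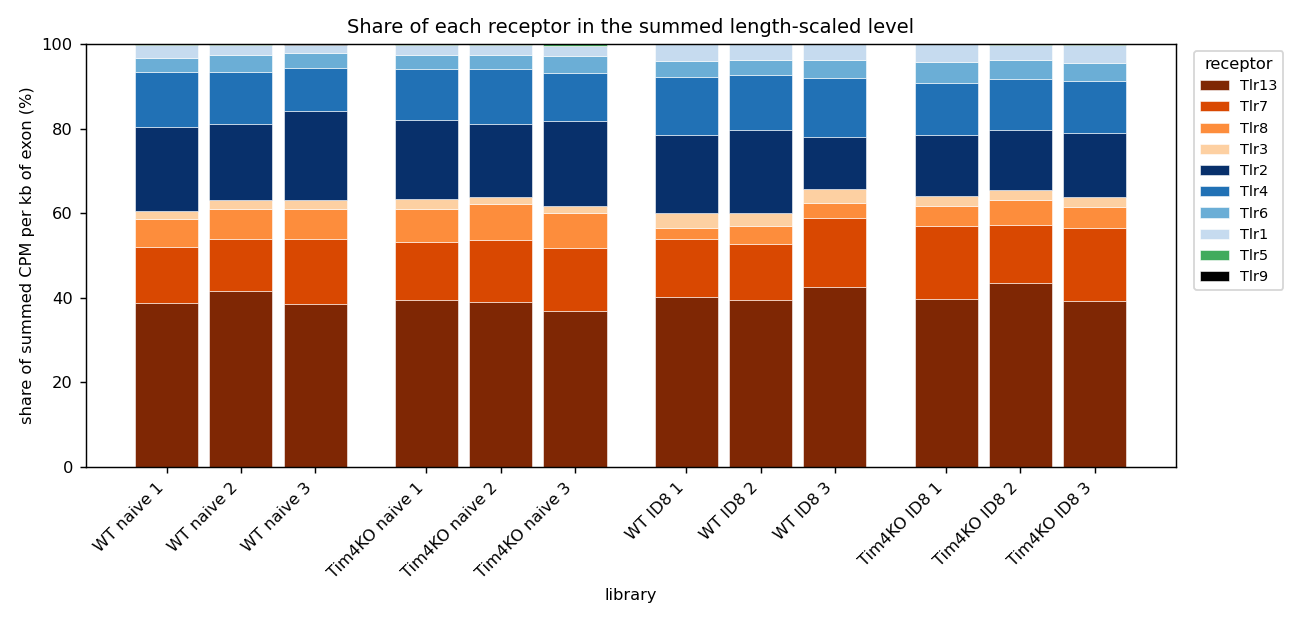
Share in percent of each receptor in the summed CPM per kb of exon (y axis) for each of the 12 libraries (x axis). The endosomal Tlr13, Tlr7, Tlr8 and Tlr3 are at the bottom in brown and orange. Above them are the surface receptors Tlr2, Tlr4, Tlr6 and Tlr1 in blue and Tlr5 in green, with the endosomal Tlr9 in black at the top. Tlr13 fills 36.9% to 43.5% of each bar, and the band of Tlr8 is narrower in the ID8 bars.

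The start-site sequences of the 4 receptors called after challenge are printed because these members passed the test. For Tlr5 the test was entered through naive libraries alone, so no result is drawn from its place among the 4. RefSeq (GRCm38.p6) gave 10 promoters, 250 bases before to 50 after a start site, for 8 of the 10 receptors, with none for Tlr4 and Tlr7. Both strands were searched for 5 motifs that transcription factors of macrophages and immune signalling are known to bind. These were GAAA, any 2 bases and GAAA for interferon-stimulated response elements (ISRE), GGG, any 2 bases and TTTCC for NF-kB, TGANTCA for AP-1, GAGGAAG for PU.1 and AGATAA for GATA factors, of which Gata6 is the one that defines LPM. Matches are in capitals, and all sequences read 5′ to 3′ in the direction of the gene. They lie at chr5:64933509-64933808 (minus strand, the upstream of 2 Tlr1 start sites), chr8:45410331-45410630 (minus strand), chr1:182954538-182954837 (plus strand) and chrX:167264280-167264579 (minus strand).
Tlr1: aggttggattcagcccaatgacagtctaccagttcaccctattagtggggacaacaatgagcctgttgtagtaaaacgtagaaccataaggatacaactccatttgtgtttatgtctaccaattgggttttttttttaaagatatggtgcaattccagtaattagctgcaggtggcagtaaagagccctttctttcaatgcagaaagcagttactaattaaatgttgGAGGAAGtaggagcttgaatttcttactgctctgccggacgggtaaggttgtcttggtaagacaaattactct
Tlr3: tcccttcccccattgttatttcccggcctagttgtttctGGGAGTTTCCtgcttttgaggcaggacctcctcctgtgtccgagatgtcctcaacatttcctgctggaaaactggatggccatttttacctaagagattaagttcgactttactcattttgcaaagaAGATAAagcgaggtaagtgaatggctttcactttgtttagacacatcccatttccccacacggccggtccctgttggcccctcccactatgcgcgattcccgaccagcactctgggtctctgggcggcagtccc
Tlr5: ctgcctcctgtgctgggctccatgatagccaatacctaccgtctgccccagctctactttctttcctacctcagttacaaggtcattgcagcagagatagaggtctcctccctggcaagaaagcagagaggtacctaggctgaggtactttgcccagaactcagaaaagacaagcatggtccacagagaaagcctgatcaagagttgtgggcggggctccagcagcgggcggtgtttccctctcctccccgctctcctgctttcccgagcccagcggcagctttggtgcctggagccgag
Tlr8: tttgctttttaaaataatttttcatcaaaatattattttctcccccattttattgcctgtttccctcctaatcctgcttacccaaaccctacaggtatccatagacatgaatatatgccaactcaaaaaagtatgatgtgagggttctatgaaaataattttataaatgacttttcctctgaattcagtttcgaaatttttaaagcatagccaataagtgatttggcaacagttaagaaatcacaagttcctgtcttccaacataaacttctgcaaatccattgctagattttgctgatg

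Tlr1 held a PU.1 match 23 bases before its start site, a motif found in 13.6% of 32851 promoters of the same length, and its other start site had no match. Tlr3 held an NF-kB match 211 bases before and a GATA match 84 bases before its start site, motifs that 1.63% and 11.2% of promoters held. Tlr5, Tlr8 and Tlr2 showed none of the 5 motifs in this window, and only 5 of all 10 promoters held any match. Among the others, 1 of 2 Tlr6 promoters held a pair of overlapping ISRE matches on its reverse strand, a motif in 3.44% of promoters. The Tlr13 promoter held a PU.1 match, and that of Tlr9 held PU.1, GATA and AP-1 matches, the last in 7.81% of promoters. A match says only that these letters were present.

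Among the surface receptors, Tlr2 (ENSMUSG00000027995, chromosome 3) binds bacterial lipoproteins as a dimer with Tlr1 or Tlr6. It stood at 73.3, 71.6 and 103 CPM in the 3 WT naive libraries, 83.0, 86.2 and 104 in naive Tim4KO, 70.7, 108 and 44.8 in challenged WT and 61.8, 62.7 and 60.5 CPM in challenged Tim4KO. The WT ID8 libraries held both the highest and the lowest of the 12 values, while the 3 Tim4KO ID8 libraries lay close together and below all Tim4KO naive ones. The challenge difference in Tim4KO cells, -0.57 on the log2 scale (SE 0.25), had an edgeR adjusted p of 0.143. It was called when WT ID8 replicate 2 or 3 was left out (edgeR adjusted p = 0.0457 and 0.0208), without the filter on low counts (0.0415) and with the Tim4KO groups fitted alone (0.0040). In WT cells the difference was -0.16 (SE 0.25, edgeR adjusted p = 0.634), and it was 0.14 without WT ID8 replicate 3.

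Tlr1 (ENSMUSG00000044827, chromosome 5), the partner of Tlr2 for triacylated lipopeptides, gave 12.3, 10.3 and 9.94 CPM in naive WT and 11.8, 13.0 and 13.8 in Tim4KO naive libraries. In the ID8 libraries it gave 16.6, 23.1 and 14.8 CPM in WT and 20.3, 18.5 and 19.3 in Tim4KO cells. All 6 ID8 libraries were above all 6 naive ones. The change was 0.74 on the log2 scale in WT (SE 0.18, edgeR adjusted p = 0.00612) and 0.59 in Tim4KO cells (SE 0.18, edgeR adjusted p = 0.0331). The WT call held in all 12 fits that left out 1 library, but not with the WT groups fitted alone (edgeR adjusted p = 0.0581). The Tim4KO call was lost whenever 1 of the 6 Tim4KO libraries was left out, with changes of 0.55 to 0.66 and edgeR adjusted p of 0.0686 to 0.114.

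Tlr6 (ENSMUSG00000051498), the partner of Tlr2 for diacylated lipopeptides, neighbours Tlr1 on chromosome 5. Its level ran from 15.6 to 25.1 CPM in naive and from 17.7 to 25.6 CPM in ID8 libraries, and the groups overlapped. The challenge differences were 0.08 (SE 0.18, edgeR adjusted p = 0.733) in WT and 0.17 (SE 0.18, edgeR adjusted p = 0.555) in Tim4KO cells, and the WT value turned to -0.16 with upper-quartile scaling. The pair are close copies: 15.3% of the 50-base windows of Tlr1 exons and 12.6% of those of Tlr6 also occur in another gene, nearly all in each other. How the authors' counting treated reads from such stretches is not given in the sources used here, so the split between Tlr1 and Tlr6 is uncertain. As counted, the ratio of Tlr1 to Tlr6 per kb was 0.650 ± 0.204 in naive WT, 0.691 ± 0.0694 in naive Tim4KO, 0.981 ± 0.124 in challenged WT and 0.913 ± 0.0950 in challenged Tim4KO cells. One WT naive library, replicate 1 at 0.883, overlapped with the ID8 range of 0.838 to 1.06.

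Tlr4 (ENSMUSG00000039005, chromosome 4) recognises lipopolysaccharide with Ly96 and Cd14. It gave 89.4, 90.3 and 89.1 CPM in naive WT, 98.3, 120 and 108 in naive Tim4KO, 96.5, 131 and 93.0 in challenged WT and 98.6, 99.0 and 91.4 CPM in challenged Tim4KO. With TMM factors, the WT naive libraries lay close together and below every library of the other 3 groups. Without those factors, they overlapped with both ID8 groups. The test estimated the spread of each gene over all 12 libraries together, with information shared between genes. None of these differences was called: 0.25 for challenge in WT (SE 0.14, edgeR adjusted p = 0.168), -0.18 for challenge in Tim4KO (SE 0.14, edgeR adjusted p = 0.421) and 0.28 for genotype in naive cells (SE 0.14, edgeR adjusted p = 0.795). Upper-quartile scaling turned the WT value to -0.0020.

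Tlr5 (ENSMUSG00000079164, chromosome 1), the receptor for flagellin, rested on few reads. Its counts were 11, 16 and 16 in naive WT, 19, 10 and 45 in naive Tim4KO, 5, 4 and 8 in challenged WT and 7, 5 and 8 in challenged Tim4KO. As CPM, the naive libraries lay from 1.06 to 2.52 and the ID8 libraries from 0.343 to 0.573, with no overlap. The change was -1.41 in WT (SE 0.52, edgeR adjusted p = 0.0499) and -1.90 in Tim4KO cells (SE 0.50, edgeR adjusted p = 0.0179). The WT call was kept in 2 of 7 other settings and in 1 of 12 fits without 1 library, the exception being without WT ID8 replicate 1, and the adjusted p reached 0.229 without the filter. In Tim4KO cells it was lost without the filter (-1.85, edgeR adjusted p = 0.111), without Tim4KO naive replicate 3, the library with 45 counts (-1.54, edgeR adjusted p = 0.136), and without any 1 of the 3 Tim4KO ID8 libraries (0.0560 to 0.0780).

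The level of Tlr5 per kb was 0.222 to 0.526 in naive and 0.0717 to 0.120 in ID8 libraries. The olfactory and vomeronasal genes, measured the same way, averaged 0.0458 to 0.138 CPM per kb in naive and 0.00132 to 0.0648 in ID8 libraries. The background ranges overlapped. Tim4KO ID8 replicates 2 and 3 were at 0.0648 and 0.0533, and WT naive replicate 2 and Tim4KO naive replicate 2 at 0.0523 and 0.0458. With the background level of each library as a covariate, the Tlr5 change was -1.17 in WT (edgeR adjusted p = 0.215) and -1.83 in Tim4KO cells (edgeR adjusted p = 0.00853). The part of background reads in the Tlr5 change was not tested.

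**Figure D3:**
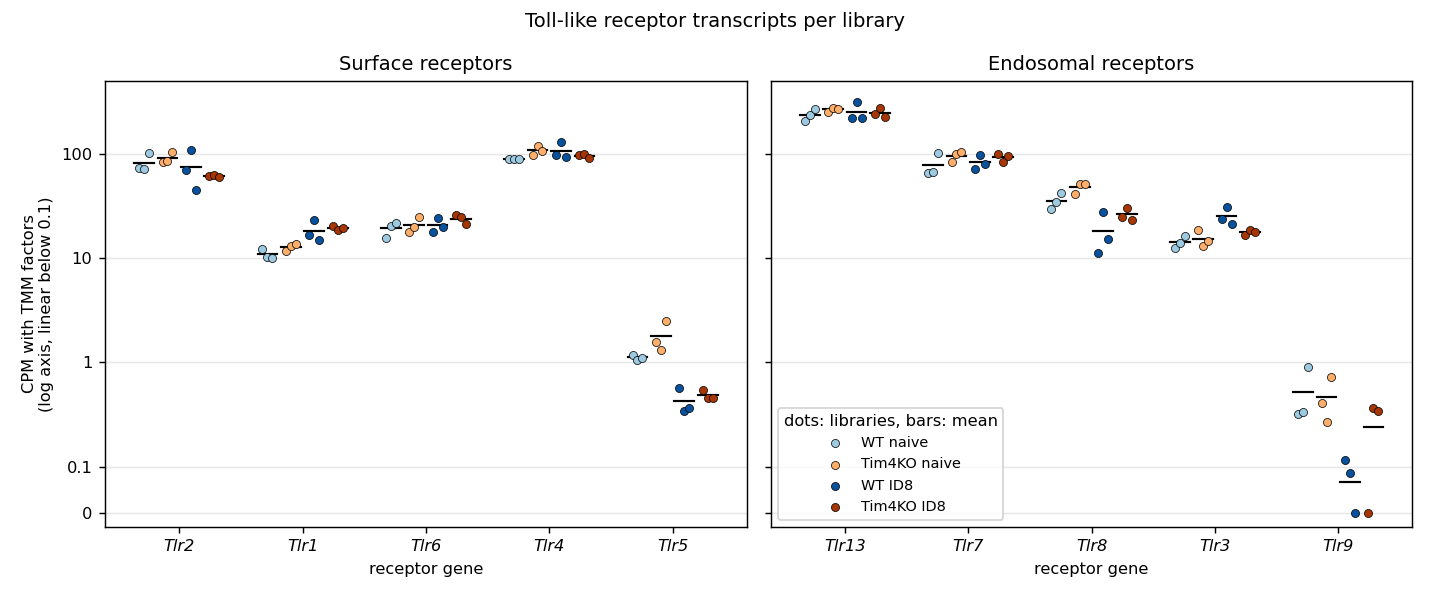
TMM-scaled CPM on a log axis that is linear below 0.1 (y) for each receptor (x), with 1 dot per library, a bar at the mean and groups told apart by colour. The ID8 dots of Tlr1 lie above, and those of Tlr5 below, all naive dots of that gene.

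Among the endosomal receptors, Tlr3 (ENSMUSG00000031639, chromosome 8) binds double-stranded RNA and signals through Ticam1. It gave 12.6, 14.0 and 16.3 CPM in naive WT, 18.5, 13.0 and 14.7 in naive Tim4KO, 23.9, 30.8 and 21.5 in challenged WT and 16.7, 18.6 and 17.9 CPM in challenged Tim4KO. The 3 WT ID8 libraries were above the other 9, and the Tim4KO ID8 libraries overlapped with Tim4KO naive replicate 1. In WT cells the challenge change was 0.82 (SE 0.18, edgeR adjusted p = 0.00310), called in all 7 other settings and all 12 fits without 1 library. In Tim4KO cells the difference was 0.19 (SE 0.18, edgeR adjusted p = 0.499). Exons of Tlr3 overlap those of Gm45542 on the opposite strand by 381 bases, and without known strand handling reads from the 2 cannot be told apart there.

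The Tlr3 response of Tim4KO cells was compared with that of WT cells by the interaction, which was -0.62 (SE 0.25) with an unadjusted p of 0.0243 and an edgeR adjusted p of 0.668. Between genotypes within ID8 cells the difference was -0.52 (SE 0.17, edgeR adjusted p = 0.292), with no overlap between the groups. It passed the threshold in 1 of 12 fits without 1 library, that without WT ID8 replicate 3 (-0.63, edgeR adjusted p = 0.0316). A difference in the Tlr3 response between genotypes was therefore not called in these libraries.

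Tlr7 (ENSMUSG00000044583) and Tlr8 (ENSMUSG00000040522), neighbours on the X chromosome, are related receptors for single-stranded RNA and its breakdown products. Tlr7 stood at 66.2, 66.5 and 101 CPM in naive WT, 83.1, 98.9 and 103 in naive Tim4KO, 72.0, 98.2 and 80.3 in challenged WT and 99.5, 83.5 and 94.6 CPM in challenged Tim4KO. Its groups overlapped, with challenge differences of 0.09 (SE 0.17, edgeR adjusted p = 0.685) in WT and -0.04 (SE 0.17, edgeR adjusted p = 0.893) in Tim4KO cells. The WT difference was -0.15 with upper-quartile scaling.

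Tlr8 gave 29.5, 34.5 and 41.8 CPM in naive WT, 41.2, 51.2 and 51.1 in naive Tim4KO, 11.1, 27.7 and 15.3 in challenged WT and 24.9, 30.5 and 23.4 CPM in challenged Tim4KO. Within each genotype every ID8 library was below every naive library. The change was -0.97 in WT (SE 0.26, edgeR adjusted p = 0.0128) and -0.87 in Tim4KO cells (SE 0.25, edgeR adjusted p = 0.0328). The interaction was 0.10 (SE 0.36, edgeR adjusted p = 0.950), and it turned negative without WT ID8 replicate 1 (-0.19). The WT call was lost without WT naive replicate 3 (edgeR adjusted p = 0.0650), without WT ID8 replicate 3 (0.0805) and when background entered as a covariate (-0.94, edgeR adjusted p = 0.103). In Tim4KO cells it was lost without any 1 of the 3 Tim4KO ID8 libraries, without Tim4KO naive replicate 2 or 3 or WT naive replicate 2 (0.0598 to 0.141) and with the covariate (-0.86, edgeR adjusted p = 0.0564).

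Because Tlr7 was measured in the same libraries, the ratio of Tlr8 to Tlr7 per kb does not depend on the scaling between libraries. It was 0.523 ± 0.0610 in naive WT, 0.572 ± 0.0147 in naive Tim4KO, 0.238 ± 0.0750 in challenged WT and 0.327 ± 0.0768 in challenged Tim4KO cells (mean ± SD, n = 3). The 6 naive libraries ran from 0.471 to 0.590 and the 6 ID8 libraries from 0.176 to 0.416, with no overlap. The ratio of Tlr3 to Tlr7 was 0.210 to 0.260 in WT ID8 libraries and 0.103 to 0.174 in the other 9. Such ratios show that the members of a pair changed unequally, not which of them changed.

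**Figure D4:**
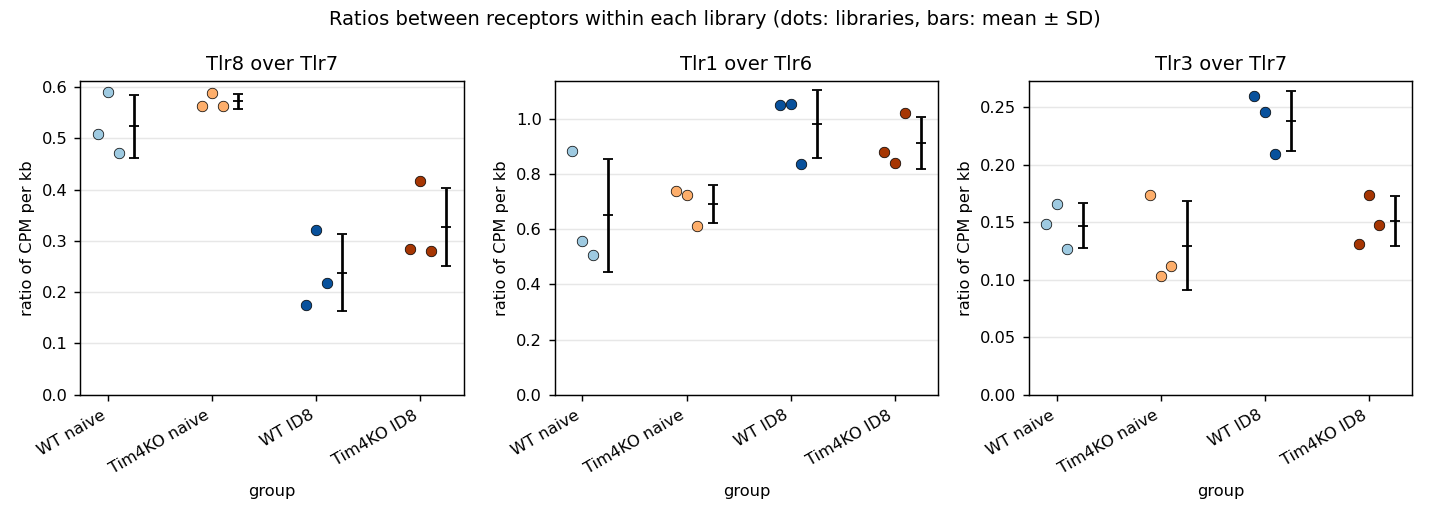
Ratio of CPM per kb between pairs of receptors within a library (y axis, starting at 0) for the 4 groups (x axis), with 1 dot per library and the mean ± SD beside it. Tlr8 over Tlr7 is at most 0.416 in the 6 ID8 libraries and at least 0.471 in the 6 naive ones, while Tlr1 over Tlr6 overlaps between conditions and Tlr3 over Tlr7 is highest in the 3 WT ID8 libraries.

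Tlr13 (ENSMUSG00000033777, X chromosome) gave 205, 237 and 267 CPM in naive WT, 251, 277 and 272 in naive Tim4KO, 219, 312 and 222 in challenged WT and 244, 276 and 225 CPM in challenged Tim4KO. All groups overlapped, and the challenge differences were 0.08 (SE 0.15, edgeR adjusted p = 0.693) in WT and -0.11 (SE 0.15, edgeR adjusted p = 0.680) in Tim4KO cells. The WT difference was -0.17 with upper-quartile scaling.

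Tlr9 (ENSMUSG00000045322, chromosome 9), the receptor for unmethylated CpG DNA, had too few reads to test. Its counts were 3, 5 and 13 in naive WT, 5, 2 and 13 in naive Tim4KO, 1, 1 and 0 in challenged WT and 0, 4 and 6 in challenged Tim4KO. The counts of 0 allow up to 0.137 CPM in WT ID8 replicate 3 and 0.231 CPM in Tim4KO ID8 replicate 1, for counting error only. Naive libraries, at 0.265 to 0.903 CPM, were all above the WT ID8 libraries, at most 0.115 CPM, and overlapped with the Tim4KO ID8 libraries, at most 0.368 CPM. Per kb, Tlr9 reached 0.0763 to 0.260 in naive libraries, against 0.0458 to 0.138 for the background genes. Tlr11 and Tlr12, the remaining mouse receptors, which bind profilin of protozoa, had at most 13 and 4 counts in any library.

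The summed markers of other cell types were mostly lower in the ID8 libraries, in which Tlr5, Tlr8 and Tlr9 were low. The LPM sum was lower there as well, within each genotype. The 8 markers of small peritoneal macrophages and dendritic cells summed to 61.9 to 85.2 CPM in naive and 16.8 to 48.4 CPM in ID8 libraries, with Xcr1 at or under the floor in 3 groups and Clec9a in both ID8 groups. Much of this sum was Cd209a, at 24.2 to 39.4 in naive and 3.26 to 6.66 CPM in ID8 libraries. Ccr2 overlapped, at 4.6 to 19.6 and 3.2 to 16.7 CPM. The 7 B cell markers summed here gave 14.0 to 20.6 CPM in WT naive, 8.67 to 12.8 in Tim4KO naive and 3.26 to 8.83 CPM in ID8 libraries, with Fcmr at or under the floor in challenged WT. The 6 mast cell markers gave 13.4 to 39.3 CPM in naive and 2.41 to 9.44 CPM in ID8 libraries, with Mcpt4 and Ms4a2 at or under the floor in challenged WT. The 8 neutrophil markers gave 174 to 256 and 71.8 to 114 CPM, most of it Csf3r, at 167 to 249 and 60.0 to 82.8 CPM, with Ly6g at or under the floor in 3 groups and Mpo and Elane in challenged WT. Against that direction, S100a8 was at 4.38 to 7.35 CPM in naive and 9.12 to 24.8 CPM in ID8 libraries. The markers S100a9, Retnlg and Cxcr2 reached higher in ID8 libraries, with overlap, the first at 0.0665 to 1.23 and 0.456 to 3.90 CPM, Retnlg at 0.0 to 1.85 and 0.601 to 11.9 CPM, and Cxcr2 at 0.0 to 0.951 and 0.182 to 3.33 CPM. The 8 T and NK cell markers gave 7.56 to 18.4 and 3.43 to 9.67 CPM, with Klrb1c at or under the floor in the WT and Ncr1 in the Tim4KO groups. Of these, Cd28 was at 2.61 to 10.6 in naive and 0.601 to 2.23 CPM in ID8 libraries. Cd3d and Cd2 overlapped and reached higher in ID8 libraries. The 8 epithelial and tumour markers were at 5.52 to 24.4 in naive and 1.60 to 5.05 CPM in ID8 libraries, with Krt8 and Krt19 at or under the floor in both ID8 groups. The part of these cell types in the values of the 3 receptors was not tested.

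The genotype comparisons asked whether receptor transcripts differ when Tim4 is missing. In naive cells 0 of the 9 tested receptors were called, where 0.0439% of all tested genes were. An unadjusted p under 0.05 was found for 999 of the 15943 tested genes and for 0 of the receptors. All 9 differences were above 0, from 0.11 for Tlr3 to 0.70 for Tlr5, and their median was 0.24, against -0.0040 for all tested genes (0.21 without Tlr5). The differences of Tlr6 and Tlr3 fell below 0 when single libraries were left out (to -0.04 for each). The WT naive and Tim4KO naive libraries did not overlap for Tlr4 and Tlr5 only. The share of all tested genes without overlap was not computed, so no result about the receptors is drawn from this. In ID8 cells 0 of 9 were called, where 0.0565% of all genes were, and 5 differences were above 0 and 4 below. Besides Tlr3, none had an unadjusted p under 0.05, while 1935 of the 15943 tested genes did. The difference of Tlr8 was 0.54 (SE 0.26, edgeR adjusted p = 0.426), and it was 0.25 without WT ID8 replicate 1 and 0.96 without WT ID8 replicate 2.

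The interaction, the Tim4KO response minus the WT response, called 0 receptors and 0.0% of all tested genes with edgeR, while 1186 genes had an unadjusted p under 0.05 and DESeq2 called 4. Tlr3 and Tlr4 were the 2 receptors with an unadjusted p under 0.05. Tlr4 had an interaction of -0.42 (SE 0.19, unadjusted p = 0.0443, edgeR adjusted p = 0.668). The 9 interactions had a median of -0.19 (-0.17 without Tlr5), beside 0.01 for all tested genes, and 7 of 9 were below 0.

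The other genes of the pathway were taken as 6 lists of 49 genes, all of which could be tested. After challenge, 10 of 49 were called in WT cells, 9 higher and 1 lower (20.4% of the list), and 6 of 49 in Tim4KO cells, 2 higher and 4 lower (12.2%). Both shares were below those of all tested genes, 31.8% and 16.6%. With upper-quartile scaling the counts were 4 higher and 10 lower in WT, and 1 higher and 9 lower in Tim4KO cells. Neither genotype comparison nor the interaction called any of the 49 genes. When 1 library was left out, 7 to 14 were called in WT cells, the lowest without WT naive replicate 1 and the highest without WT ID8 replicate 3.

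Among the 5 surface co-receptors, Ly86, the partner of the receptor Cd180, fell by 0.88 on the log2 scale in WT cells (SE 0.16, edgeR adjusted p = 0.000889), from 373, 337 and 328 to 178, 174 and 215 CPM. In Tim4KO cells its difference was -0.44 (SE 0.16, edgeR adjusted p = 0.0711), and it was called lower with upper-quartile scaling (0.0263), the background covariate (0.0412), DESeq2 (0.0433) or the Tim4KO groups alone (0.0442) and without WT ID8 replicate 3 (0.0478). Ly96, which presents lipopolysaccharide to Tlr4, fell by 0.42 in Tim4KO cells (SE 0.13, edgeR adjusted p = 0.0382), a call lost without the filter (0.347) and without any 1 of the 6 Tim4KO libraries, WT naive replicate 2 or 3, or WT ID8 replicate 1 (0.0521 to 0.242). Cd14, which hands lipopolysaccharide to Ly96, was at 496 ± 106 CPM in naive WT and 584 ± 80.0 CPM in challenged WT cells and was not called.

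Of the 7 genes for receptor folding and delivery to endosomes, Hsp90b1, the chaperone on which most Toll-like receptors depend, rose in both genotypes. It went from 648, 632 and 531 to 1140, 1166 and 838 CPM in WT cells (0.79 on the log2 scale, SE 0.15, edgeR adjusted p = 0.00112) and from 530, 423 and 505 to 882, 857 and 911 CPM in Tim4KO cells (0.86, SE 0.15, edgeR adjusted p = 0.00125). No ID8 library overlapped with a naive one, and both calls held in all 12 fits without 1 library. Ap3b1, a subunit of the AP-3 sorting complex, rose by 0.47 in WT cells (SE 0.12, edgeR adjusted p = 0.00670; 0.0717 with upper-quartile scaling). Cnpy3, a co-chaperone of Hsp90b1, rose by 0.38 in Tim4KO cells (SE 0.11, edgeR adjusted p = 0.0320), and the call was lost with upper-quartile or RLE scaling (0.0838 and 0.0582), without the filter (0.148) and without any 1 Tim4KO ID8 library or Tim4KO naive replicate 2 or 3 (0.0931 to 0.151). Unc93b1 lay between 424 and 565 CPM in all libraries, with differences of -0.03 in WT and 0.05 in Tim4KO cells. None of the 6 adaptor genes was called in any comparison, and Myd88 came closest, at 0.44 in WT cells (SE 0.18, edgeR adjusted p = 0.0720), called with the background covariate (0.0365), without the filter (0.0187), without WT ID8 replicate 3 (0.00418) and without Tim4KO naive replicate 1 (0.0355).

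The 17 kinases and ubiquitin ligases gave 5 calls, all higher, in WT cells and 2, both lower, in Tim4KO cells. In WT cells Ube2n, a ubiquitin-conjugating enzyme that works with Traf6, rose from 88.2, 86.1 and 77.3 to 149, 205 and 134 CPM (0.95, SE 0.16, edgeR adjusted p = 0.000704). Ikbke, a kinase of interferon regulatory factors, rose by 0.87, Chuk, a subunit of the IkB kinase, by 0.54 and Map3k7, the kinase upstream of it, by 0.44, with edgeR adjusted p of 0.0141, 0.00665 and 0.0200. The fifth gene, Traf3, rose by 0.54 (edgeR adjusted p = 0.0251), and it is named after its values were seen, since the naming rule took 4 per list. With upper-quartile scaling, of these 5 only Ube2n stayed called, and the same held with the WT groups fitted alone (0.0544 for Chuk, 0.0827 for Ikbke, 0.0895 for Map3k7 and 0.136 for Traf3). When single libraries were left out, Ube2n and Chuk stayed called in all 12 fits. Ikbke was lost without WT naive replicate 1 (0.0557), Map3k7 without WT naive replicate 1 or 3 or WT ID8 replicate 2 (0.0667 to 0.0748) and Traf3 without WT naive replicate 1 or 2 or WT ID8 replicate 2 (0.0697 to 0.0834). In Tim4KO cells Peli1, an E3 ligase, fell by 0.61 and Tab2, an adaptor of Map3k7, by 0.51 (edgeR adjusted p = 0.00973 and 0.0152). Both calls were lost without Tim4KO naive replicate 2 or Tim4KO ID8 replicate 2, that of Peli1 also without Tim4KO ID8 replicate 3 and that of Tab2 without Tim4KO ID8 replicate 1 (0.0559 to 0.122), and that of Tab2 also without the filter (0.106).

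The interactions of Chuk (-0.62), Ube2n (-0.58) and Ikbke (-0.70) had an edgeR adjusted p of 0.668 each. Without WT ID8 replicate 3, Chuk and Ikbke passed the threshold (edgeR adjusted p = 0.0408 and 0.0492), and Ube2n, Ikbke and Irak3, a kinase-like inhibitor of the pathway, were then lower in challenged Tim4KO than in challenged WT cells (0.0172, 0.00766 and 0.0402). For Ikbke the difference between genotypes in ID8 cells was called without the filter as well (0.0290).

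Of the 6 transcription factors, Irf7, which drives type I interferon genes, rose from 86.8, 61.2 and 79.8 to 192, 340 and 304 CPM in WT cells (1.87, SE 0.47, edgeR adjusted p = 0.0146; 0.125 with the background covariate, and 0.0535 and 0.0517 without WT naive replicate 2 and 3). In Tim4KO cells it went from 219, 70.3 and 59.1 to 291, 223 and 279 CPM, which gave 1.18 (SE 0.46, edgeR adjusted p = 0.113). Without Tim4KO naive replicate 1, the naive library at 219 CPM, the Tim4KO change was 2.05 (edgeR adjusted p = 0.000118). Nfkb1, an NF-kB subunit, fell by 0.44 in Tim4KO cells (edgeR adjusted p = 0.0431), lost without the filter (0.232) and without the same 9 single libraries as the call of Ly96 (0.0562 to 0.234). Among 8 inhibitors, Nfkbia, which holds NF-kB in the cytoplasm, was called higher in WT cells (0.78, SE 0.21, edgeR adjusted p = 0.0122; 0.0531 without WT naive replicate 1 and 0.0619 with the WT groups alone). No inhibitor was called in Tim4KO cells in the fit over all 12 libraries. With the Tim4KO groups alone Irak3 and Tnfaip3 were called lower (-0.54 and -0.89, edgeR adjusted p = 0.00509 and 0.00257). With upper-quartile scaling of all 12 libraries Irak3, Cyld and Rnf216 were called lower in Tim4KO cells (0.0312, 0.0381 and 0.0387), and Irak3 without WT ID8 replicate 3 (0.0465). Over all lists the Tim4KO count was 1 without Tim4KO naive replicate 2 or Tim4KO ID8 replicate 2, 2 without Tim4KO ID8 replicate 1 or 3, and 10 without WT ID8 replicate 3.

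**Figure D5:**
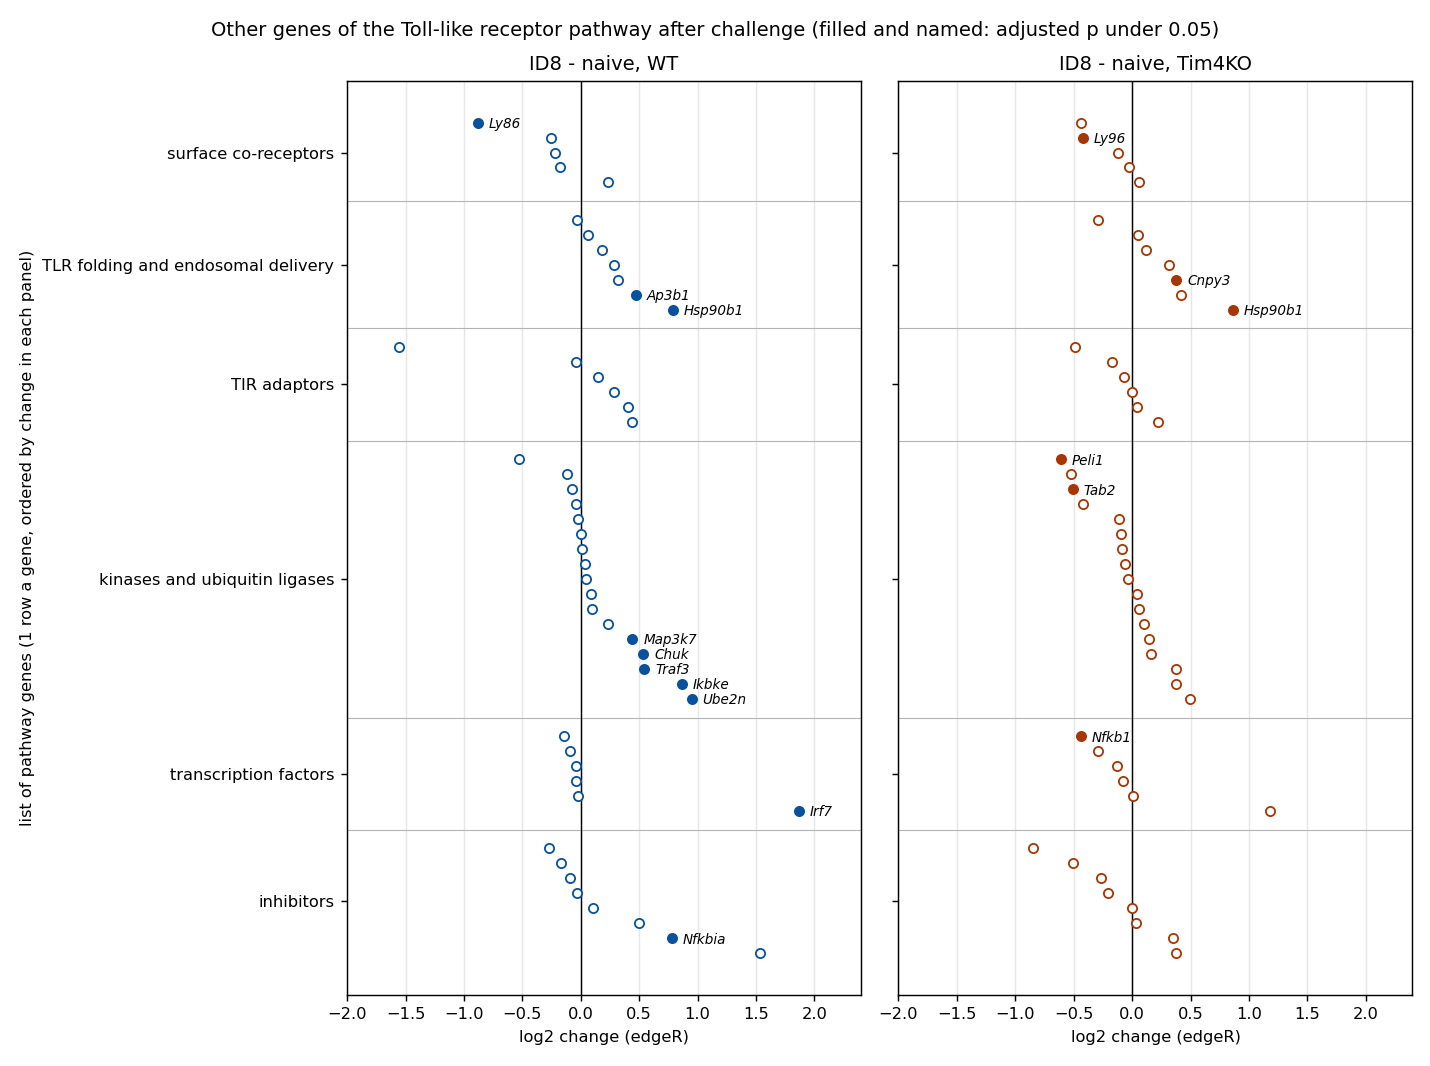
Log2 change from edgeR (x axis) of the 49 pathway genes in 6 lists (y axis, 1 row per gene) after challenge in WT (left) and Tim4KO (right) cells; filled and named points had an adjusted p under 0.05. In WT cells 9 filled points lie right of 0 and 1 left of it, and in Tim4KO cells 2 lie right and 4 left.

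The genes whose pattern was most like that of a called receptor were found over all 12 libraries, as the smallest root mean square difference of centred log2 CPM among 9691 genes. For Tlr1 they were Specc1 (0.13), Myo1c (0.13) and Thada (0.13), beside an SD of Tlr1 itself of 0.39. For Tlr3, with an SD of 0.37, they were Lcp2 (0.10), Aimp1 (0.12) and Mitd1 (0.13). For Tlr8, with an SD of 0.66, they were Zfp189 (0.26), St8sia4 (0.26) and Rassf2 (0.27). For Tlr5, with an SD of 0.78, they were Bcl6 (0.24), Dleu2 (0.28) and Ldlrad3 (0.29). The calls of Tlr5 rest on a filter that it passed through its naive libraries alone. Such closeness describes these libraries, which share condition and depth.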

How the data were processed

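Whole-number read counts per Ensembl gene for 12 libraries were deposited by the authors as 1 raw count table, with 0 columns left unmatched to a library. Per the labels' protocols, RNA of sorted cells was purified on RNeasy micro columns and converted to amplified cDNA libraries by SMART-Seq mRNA LP. STAR 2.5 and the builds mm10 and GRCm39 are named in the submitters' processing notes; the counting program, annotation, strand and multi-mapping settings are not given in the sources used here. Gene names and exonic lengths came from GENCODE vM21, which named 52029 of 57010 identifiers, and promoters from RefSeq GRCm38.p6.

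Counts were scaled by TMM (factors 0.896 to 1.09) and tested with edgeR 4.0.16 in R 4.3.3: filterByExpr, group means fitted to all 12 libraries in a single quasi-likelihood model, robust dispersions, 8 residual degrees of freedom, two-sided F tests, Benjamini-Hochberg adjustment over 15943 genes. SE was the size of the log2 change over the root of F. Background was the sum over 1947 olfactory and vomeronasal genes with a mean of at most 1 CPM. The fit was tested on simulated data. Alternatives were RLE and upper-quartile scaling, no filter, a replicate block, a background covariate, the 2 compared groups alone, DESeq2 1.42.0, CPM without TMM factors and leaving out each library. Every receptor was described; from each pathway list up to 4 called genes with the smallest p were named, and for called receptors the 3 most alike genes (mean count 50 or more). The members and lists were chosen with earlier results of these data known. One marker gene is not reported here.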

Additional observations from a re-analysis of the deposited data

How the results depend on the processing

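No receptor called in a challenge comparison changed direction in any alternative run. Over all genes, the calls between genotypes in naive cells (7) became 59 without the filter, 3 with a replicate block, 2 with the 2 groups alone and 42 with DESeq2, and 1 to 29 when 1 library was left out. In ID8 cells (9) they became 264 without the filter, 14 with a replicate block, 189 with the background covariate and 227 with DESeq2, and 1 to 997 when 1 library was left out, the highest without WT ID8 replicate 3. The WT challenge calls (5067) became 3102 with the 2 groups alone and 3362 to 7230 when 1 library was left out, and the Tim4KO calls (2642) became 1222 to 3595. The interaction (0) gave 73 without the filter, 2 with the covariate, 4 with DESeq2 and 0 to 368 when 1 library was left out, the highest again without WT ID8 replicate 3. The receptors called in WT cells (4) were 2 with the covariate and 2 with the 2 groups alone, and 2 to 5 when 1 library was left out, with 2 without WT naive replicate 3 or WT ID8 replicate 3. Tlr9 passed the filter in some of these smaller fits and was called lower without WT ID8 replicate 1 (edgeR adjusted p = 0.0488) or Tim4KO ID8 replicate 1 (0.0413). Over all 12 libraries, 2 naive and 0 ID8 libraries of Tlr9 were above the filter level, so it entered those fits through naive libraries. It was not called in the other fits without 1 library that it entered (0.0803 to 0.178). Nor was it without the filter (0.0954) or with DESeq2 (adjusted p = 0.0665), and no result is drawn from its calls. In Tim4KO cells (3) the range of called receptors was 0 to 4, with 0 without Tim4KO naive replicate 3 or any 1 Tim4KO ID8 library and 1 without Tim4KO naive replicate 2, fits that rest on fewer samples. Between genotypes in ID8 cells it was 0 to 1. The remaining changes of direction all concerned differences that were called neither before nor after. They were Tlr13 between genotypes in ID8 cells (0.07 with upper-quartile scaling, 0.024 with the 2 groups alone), and for WT challenge Tlr2 (0.18 with the covariate), Tlr4 (-0.0020), Tlr6 (-0.16), Tlr7 (-0.15) and Tlr13 (-0.17) with upper-quartile scaling, and Tlr6 (-0.014), Tlr7 (-0.0070) and Tlr13 (-0.022) with the 2 groups alone. For Tim4KO challenge it was Tlr7 (0.0090 without the filter). Leaving out 1 library gave -0.037 to 0.23 for Tlr6 and -0.042 to 0.22 for Tlr3 between genotypes in naive cells, and in ID8 cells -0.044 to 0.30 for Tlr1, -0.55 to 0.10 for Tlr2, -0.26 to 0.019 for Tlr4 and -0.15 to 0.17 for Tlr13. It gave -0.50 to 0.14 for Tlr2, -0.037 to 0.24 for Tlr6, -0.0060 to 0.35 for Tlr7 and -0.075 to 0.24 for Tlr13 in WT challenge, -0.11 to 0.063 for Tlr7 in Tim4KO challenge, and -0.30 to 0.044 for Tlr1, -0.055 to 0.23 for Tlr6 and -0.19 to 0.52 for Tlr8 in the interaction. The cause was not tested. Libraries with the same replicate number deviated together in some pairs only, with correlations of -0.0947 to 0.328 over 18 pairs (median 0.0654, 6 over 0.1). The 36 other pairs ran from -0.353 to 0.315 (median -0.0204). Of the 12 libraries, 5 correlated best with their own number. With the replicate block Tlr5 in WT cells had a change of -1.42 (edgeR adjusted p = 0.0816) and Nfkb1 in Tim4KO cells -0.44 (0.0517), and neither was called. CPM without TMM factors moved 1 of 40 group levels by more than its SD, Tlr4 in WT naive cells, to 92.5. Depth limits Tlr5 and Tlr9, at 0 to 45 counts per library.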
